A study of Mus musculus with 6 samples.

Results

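The genes of glycolysis, with those of the glycerol phosphate branch and of the entry of galactose and fructose, were described in the left ventricle of mice whose cardiomyocytes carry an additional glucose transporter. A list of 33 gene names was searched among the probe sets that the array annotation assigns to exactly 1 gene, and the brightest probe set stood for each gene. Of the 33 names, 27 were measured and all 27 were above the filter on dim probe sets, among 13178 genes tested. Gpi1, Pfkfb1, Gapdh, Eno1, Sord and Akr1b3 had no probe set of that kind and were not analysed here as genes, so that of the polyol branch only Khk was measured. Glut1-TG mice express human Glut1, an insulin-independent glucose transporter, under the alpha-myosin heavy chain promoter, which is active in cardiomyocytes. They were compared with WT mice. All were males of the FVB strain aged 11 to 12 weeks on standard chow, and RNA from the left ventricle of 3 Glut1-TG and 3 WT mice was hybridised to 1 Affymetrix array per heart. The labels give no litter or batch, and p-values measure the spread between these arrays alone. In tissue RNA, fewer cells of a type and less RNA per cell cannot be told apart.

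Glycolysis splits glucose into pyruvate in the cytosol. Hexokinase traps glucose as glucose 6-phosphate, phosphofructokinase-1 commits it to the pathway, and the later enzymes yield ATP and NADH. Fructose 2,6-bisphosphate, which the PFK-2/FBPase-2 enzymes make and remove, activates phosphofructokinase-1. Lactate dehydrogenase and the glycerol phosphate dehydrogenases hand the reducing power of NADH to lactate, to glycerol phosphate or to mitochondria, and the polyol branch turns glucose into sorbitol and fructose. The adult heart draws most of its ATP from fatty acids and expresses muscle forms of many of these enzymes.

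None of the 27 genes passed the test. With limma and Benjamini-Hochberg adjustment over all genes, 0 of 27 were higher and 0 of 27 lower in Glut1-TG hearts, against 34 (0.258%) and 79 (0.599%) of all genes tested, 0.857% in either direction. At an unadjusted limma p under 0.05, Pfkfb3 and Gpd1 were higher and Hk2 and Ldhb lower, 4 of 27 genes, against 11.3% of all genes in either direction (5.47% higher and 5.81% lower). The study selected genes by a fold change above 1.25 together with p below 0.05, applied here with the methods' t-test without adjustment. These thresholds took Pfkfb3 as higher (3.21% of all genes) and Hk2 as lower (2.65% of all genes), against 5.86% in either direction. The study reports more genes in each direction than the thresholds took here, so a gene past them here is not the study's own call. The 3 Glut1-TG arrays lay above all WT arrays for 2 genes, Pfkfb3 and Gpd1, and below them for 3, Hk2, Ldhb and Gpd1l. Over all genes these shares were 8.67% above and 8.77% below, 17.4% in either direction. The log2 fold change was positive for 9 and negative for 18 of the 27 genes, with a median of -0.10 against 0.02 over all genes. After quantile normalization 12 were positive and 14 negative, with a median of -0.03 against 0.01 over all genes.

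The promoters of Hk2 and Pfkfb3, the genes past the study's thresholds, and of Ldha and Ldhb, whose signals shifted against each other, are shown because glycolytic promoters are known for E-boxes (CACGTG), which bind basic helix-loop-helix factors such as MYC and USF, and for the hypoxia response core (ACGTG or GCGTG). These genes were chosen after their values were seen. The windows run from 250 bases before to 50 after the annotated start, come from RefSeq on build GRCm38.p6, and are written 5' to 3' on the gene's strand, with capitals marking ACGTG or GCGTG on either strand and so CACGTG as well. For Ldha the window with CACGTG is shown.
Hk2, chr6:82774405-82774704, minus strand: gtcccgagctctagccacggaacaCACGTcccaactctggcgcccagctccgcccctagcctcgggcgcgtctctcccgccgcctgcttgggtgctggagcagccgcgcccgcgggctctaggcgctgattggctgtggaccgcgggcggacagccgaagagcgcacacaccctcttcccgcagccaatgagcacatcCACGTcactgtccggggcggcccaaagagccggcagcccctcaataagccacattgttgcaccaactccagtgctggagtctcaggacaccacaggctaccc
Pfkfb3, chr2:11502041-11502340, minus strand: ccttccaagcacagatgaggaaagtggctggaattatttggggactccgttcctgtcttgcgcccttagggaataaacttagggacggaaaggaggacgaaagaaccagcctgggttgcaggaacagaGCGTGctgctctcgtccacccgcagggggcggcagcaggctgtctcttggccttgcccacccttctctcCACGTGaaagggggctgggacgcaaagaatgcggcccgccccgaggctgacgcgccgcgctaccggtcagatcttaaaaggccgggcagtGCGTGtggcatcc
Pfkfb3, chr2:11553880-11554179, minus strand: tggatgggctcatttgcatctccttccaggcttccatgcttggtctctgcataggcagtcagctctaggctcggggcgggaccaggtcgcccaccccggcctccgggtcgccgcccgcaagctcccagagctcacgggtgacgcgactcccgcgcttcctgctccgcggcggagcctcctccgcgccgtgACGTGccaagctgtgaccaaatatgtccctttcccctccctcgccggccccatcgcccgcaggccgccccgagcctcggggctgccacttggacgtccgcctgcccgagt
Ldha, chr7:46845554-46845853, plus strand: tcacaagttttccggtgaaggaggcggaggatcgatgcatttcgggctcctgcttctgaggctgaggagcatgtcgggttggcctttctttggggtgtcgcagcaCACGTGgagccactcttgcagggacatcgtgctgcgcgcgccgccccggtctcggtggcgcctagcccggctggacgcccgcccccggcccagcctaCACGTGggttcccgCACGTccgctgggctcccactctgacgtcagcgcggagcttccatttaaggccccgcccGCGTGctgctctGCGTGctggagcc
Ldhb, chr6:142507908-142508207, minus strand: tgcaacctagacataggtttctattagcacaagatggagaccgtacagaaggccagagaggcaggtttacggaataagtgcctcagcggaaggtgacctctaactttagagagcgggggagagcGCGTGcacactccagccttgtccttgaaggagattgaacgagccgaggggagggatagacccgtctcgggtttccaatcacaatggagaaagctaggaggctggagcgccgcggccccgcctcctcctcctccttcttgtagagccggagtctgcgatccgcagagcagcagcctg

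In these windows a CACGTG counts as 2 copies of ACGTG, since it holds that core on both strands. Hk2 held 2 copies of ACGTG and 0 of GCGTG. The first Pfkfb3 window held 1 CACGTG and 2 copies of GCGTG, and the other held 1 ACGTG. The Ldha window shown, picked for its CACGTG, held 2 copies of CACGTG, 5 of ACGTG in all and 2 of GCGTG. The other Ldha window held 0 copies of CACGTG, 0 of ACGTG and 2 of GCGTG. Ldhb held 1 GCGTG and 0 copies of ACGTG. Because of that choice, the windows shown do not compare the 2 genes. Of the measured genes, 25 of 27 were matched in the promoter table, with 38 windows, and Galm and Gpd1 had no entry. ACGTG stood in 55.3% of the 38 windows, against 19.6% of all 32851 windows. CACGTG stood in 15.8% of them against 7.15% of all, and GCGTG in 44.7% against 32.4%. The GC box GGGCGG, a site of the general factor SP1, stood in 57.9% against 35.7%. A match describes letters in the window, and its part in the signals was not tested.

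**Figure D1:**
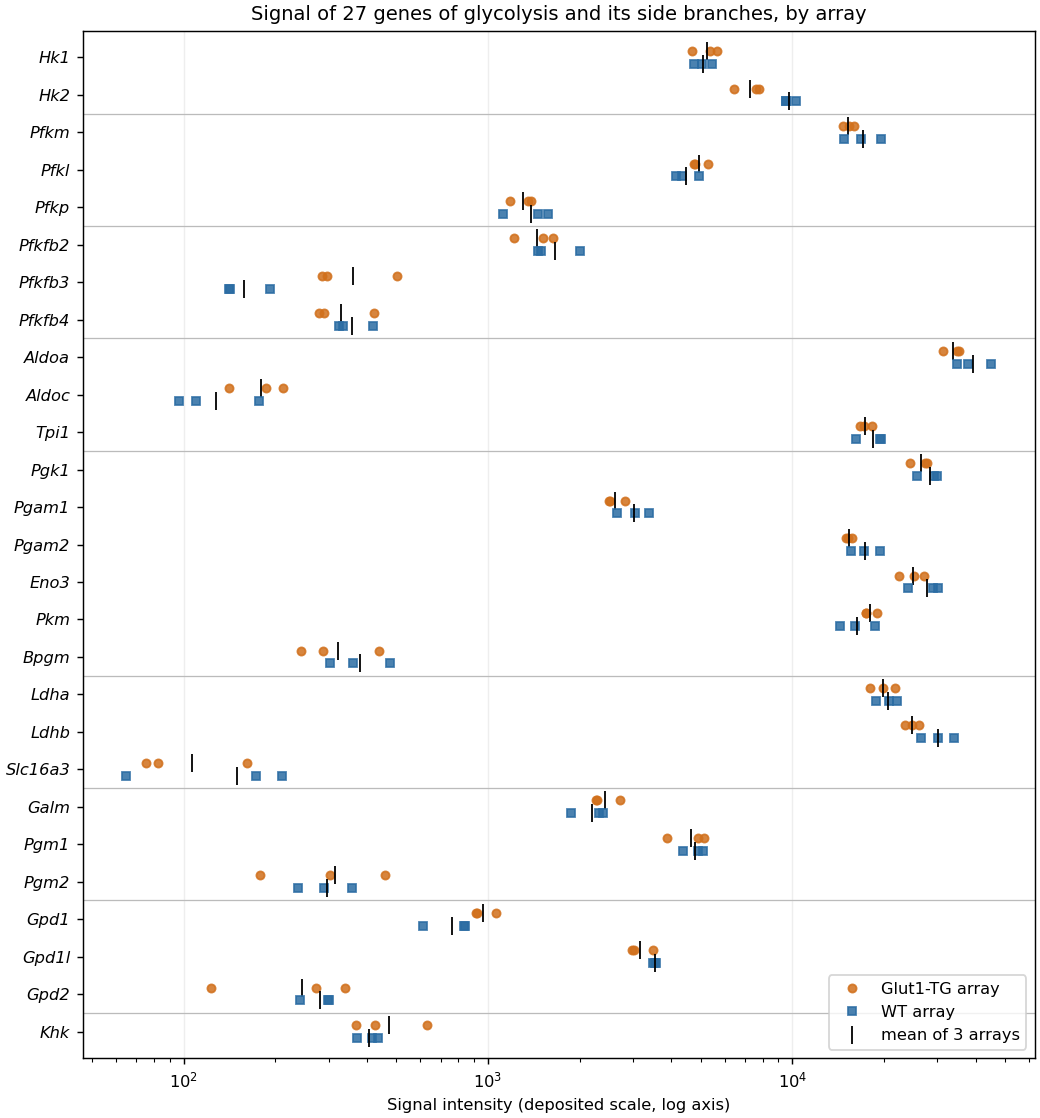
Signal intensity (log axis) of the 27 genes in each array, with Glut1-TG arrays as circles above WT arrays as squares and a bar for each mean of 3 arrays. Hk2, Ldhb and Gpd1l lay lower and Pfkfb3 and Gpd1 higher in all Glut1-TG arrays, and the points of the other genes overlapped.

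Hexokinase 2, the insulin-responsive hexokinase of muscle and heart, had signals of 7587, 7791 and 6453 in the Glut1-TG arrays and of 10287, 9538 and 9503 in the WT arrays. The groups did not overlap, and the highest Glut1-TG array stayed below the lowest WT array. Hk2 averaged 7277 ± 721 in Glut1-TG and 9776 ± 443 in WT hearts (SD, n = 3 each), with a log2 fold change of -0.43 ± 0.09 (SE) and a 95% interval of -0.64 to -0.22. The adjusted p of limma was 0.083, and it lay between 0.065 and 0.41 over the adjusted alternatives, so that the difference missed the threshold in each of them. Hk1, the hexokinase of most tissues, had signals of 4684, 5668 and 5379.9 in Glut1-TG arrays and 5064, 4750 and 5445 in WT arrays. The Hk1 groups overlapped, with a log2 fold change of 0.04 ± 0.10 (limma, adjusted p = 0.91) and a 95% interval of -0.17 to 0.26. A dimmer Hk1 probe set had a log2 fold change of -0.11.

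Phosphofructokinase-1 is built from muscle, liver and platelet subunits. Pfkm, the muscle subunit, had signals of 15349, 15920.3 and 14636 in Glut1-TG arrays and 19494, 14801 and 16873 in WT arrays, a log2 fold change of -0.15 ± 0.10. Pfkl, the liver subunit, had 4789, 5280.5 and 4768 in Glut1-TG arrays and 4929, 4328 and 4136 in WT arrays, a log2 fold change of 0.15 ± 0.09. The groups overlapped for both subunits, with limma's adjusted p-values of 0.63 and 0.59. A dimmer Pfkl probe set lay above WT in every Glut1-TG array, with 3272, 3518 and 3565 against 3001, 3180.1 and 2878 (log2 fold change 0.19, limma, adjusted p = 0.49 over all probe sets). Pfkp, the platelet subunit, had 1383, 1185 and 1359 in Glut1-TG arrays and 1459, 1119.9 and 1574 in WT arrays. Its log2 fold change was -0.07 (limma, adjusted p = 0.89), and its other probe sets had -0.15 and 0.33.

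Pfkfb3 encodes the PFK-2/FBPase-2 isoform with the highest ratio of kinase to phosphatase activity and is known as an inducible activator of glycolysis. Its signals were 296, 503 and 285 in Glut1-TG arrays and 142, 192 and 141 in WT arrays. The lowest Glut1-TG array lay above the highest WT array. Pfkfb3 averaged 361 ± 123 in Glut1-TG and 158 ± 29.5 in WT hearts (SD, n = 3 each). The log2 fold change was 1.15 ± 0.31 (limma, adjusted p = 0.18), a fold of 2.23 between the means of the log2 signals with a 95% interval of 1.37 to 3.61. The adjusted p was 0.17 to 0.46 over the adjusted alternatives. The probe set was dim, at percentile 21.3 of the signals of all genes tested, and it was not tested under the strict filter. A dimmer Pfkfb3 probe set had 180, 113 and 172 in Glut1-TG arrays against 108, 123 and 117 in WT arrays. Those groups overlapped, with a log2 fold change of 0.39. Pfkfb2, the isoform that predominates in heart, had 1515, 1216 and 1635 in Glut1-TG arrays and 2013, 1460.1 and 1496 in WT arrays, and its 4 probe sets had log2 fold changes of -0.18, 0.40, 0.18 and -0.44. Pfkfb4, known from testis and tumours, had a log2 fold change of -0.14 ± 0.24. Pfkfb2 and Pfkfb4 overlapped between groups, and the adjusted p-values of limma were 0.70 and 0.87.

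Aldolase splits the 6-carbon sugar, and triose phosphate isomerase interconverts the products. Aldoa, the muscle aldolase, was among the brightest genes of the array, with 34712, 35361 and 31166 in Glut1-TG arrays and 45082, 34772 and 37647 in WT arrays. The groups overlapped, with a log2 fold change of -0.21 ± 0.11 (limma, adjusted p = 0.52), and its 5 probe sets had values of -0.21 to -0.10. Aldoc, the brain aldolase, was dim, with 141, 187 and 213 in Glut1-TG arrays and 177, 96.3 and 110 in WT arrays. Its log2 fold change was 0.53 ± 0.40 (limma, adjusted p = 0.66), with overlap. Its WT signals of 96.3 and 110 were under the filter's signal of 115, and Aldoc was not tested under the strict filter. Another Aldoc probe set, under the filter, went the other way. It had 14.7, 52.7 and 11.1 in Glut1-TG arrays and 103, 59.3 and 21.7 in WT arrays, with overlap. Tpi1 had a log2 fold change of -0.08 ± 0.10, and its 3 probe sets ranged from -0.08 to -0.02.

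The enzymes from glyceraldehyde 3-phosphate to pyruvate were mostly bright, and their means lay near those of WT. Of the 6 measured here, 5 had a negative log2 fold change and 0 had groups that did not overlap. Pgk1, the first enzyme of glycolysis to make ATP, had 27338, 27629.9 and 24313 in Glut1-TG arrays and 29276, 25679.9 and 29885 in WT arrays (log2 fold change -0.10 ± 0.09). A dimmer Pgk1 probe set had 0.27, with every Glut1-TG array above WT. Of the phosphoglycerate mutases, the muscle form Pgam2 had 15733, 15063 and 15187 in Glut1-TG arrays and 19378, 15561 and 17180.4 in WT arrays (-0.18 ± 0.09). Pgam1, the form of most other tissues, had 2507, 2521 and 2813 in Glut1-TG arrays and 2657, 3038 and 3382 in WT arrays (-0.21 ± 0.11). WT replicate 2 was the lowest WT array for Pgk1 and Pgam2 but not for Pgam1, where it stood between the others. Eno3, the muscle enolase, had a log2 fold change of -0.16 ± 0.11. Pkm, the pyruvate kinase of muscle and of proliferating cells, was the single positive one, with 17479, 18987 and 17470.5 in Glut1-TG arrays and 18659, 14331 and 16109.6 in WT arrays. Its log2 fold change was 0.14 ± 0.10 (limma, adjusted p = 0.64) and 0.25 after quantile normalization (limma, adjusted p = 0.15). The probe set reads the gene, and the splice forms of Pkm were not separated here. Bpgm, which makes the 2,3-bisphosphoglycerate of red blood cells, had -0.26 ± 0.28 by its brightest probe set and 0.73 and 0.20 by the others. The adjusted p-values of limma for these 6 genes lay between 0.52 and 0.78. Of the erythroid markers, Alas2 alone passed the filter with a log2 fold change of 0.16, while Hba-a1, Slc4a1 and Epb42 were under the filter.

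Gapdh, the enzyme before Pgk1, was read by 3 control probe sets of the array that were kept out of the fit. The one at the 3' end of the transcript had 39053, 37344 and 36696 in Glut1-TG arrays and 43247, 34904 and 40826 in WT arrays. The log2 differences of the 3', middle and 5' probe sets were -0.07, -0.03 and -0.05, with two-sided exact permutation p of 0.6, 0.8 and 0.6 over 20 groupings. The Gapdh groups overlapped at all 3 probe sets.

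Lactate dehydrogenase is a tetramer of the muscle subunit, Ldha, and the heart subunit, Ldhb. Ldhb had 24825, 25989.7 and 23428 in Glut1-TG arrays and 34024, 26551 and 30047 in WT arrays. All Glut1-TG arrays lay below all WT arrays, although the gap between the highest Glut1-TG and the lowest WT array was small. Ldhb averaged 24748 ± 1282 in Glut1-TG and 30207 ± 3739 in WT hearts (SD, n = 3 each), a log2 fold change of -0.28 ± 0.10 with a 95% interval of -0.51 to -0.05 (limma, adjusted p = 0.35). Its 4 probe sets had log2 fold changes of -0.28, -0.20, -0.33 and -0.28, and in 2 of them the groups did not overlap. Ldha had 19903, 21835 and 18056 in Glut1-TG arrays and 22035, 18879 and 20761 in WT arrays. These groups overlapped (log2 fold change -0.05 ± 0.10, limma, adjusted p = 0.90). Slc16a3, the lactate exporter MCT4 of glycolytic muscle, lay just above the filter on dim probe sets with 82.6, 75.3 and 162 in Glut1-TG arrays and 64.8, 173 and 211 in WT arrays, and its interval of -1.70 to 0.88 allowed a large change either way.

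**Figure D2:**
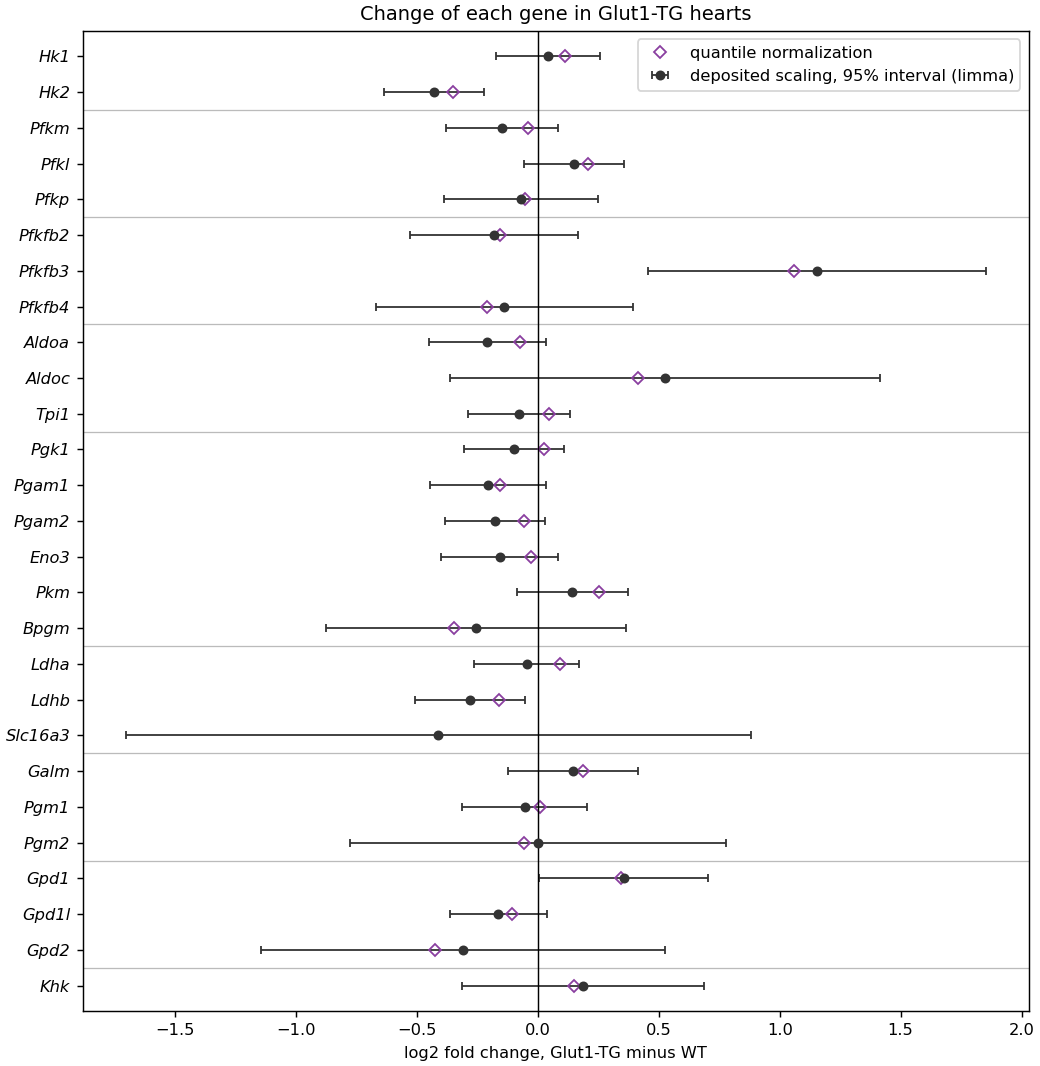
Log2 fold change (Glut1-TG minus WT) of each gene with its 95% interval from limma, and the same value after quantile normalization as a diamond (Slc16a3 was then under the filter). Hk2, Pfkfb3, Ldhb and Gpd1 had intervals that did not cross 0, and none of the 4 passed the adjusted test.

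In the glycerol phosphate branch, Gpd1, the cytosolic dehydrogenase that makes glycerol 3-phosphate from dihydroxyacetone phosphate, had 922, 1060 and 911 in Glut1-TG arrays and 610.2, 832 and 839 in WT arrays. Every Glut1-TG array lay above every WT array. The means were 964 ± 83.1 in Glut1-TG and 760 ± 130 in WT hearts (SD, n = 3 each), a log2 fold change of 0.35 ± 0.16 (limma, adjusted p = 0.43). A dimmer Gpd1 probe set had 846, 1004 and 834 in Glut1-TG arrays against 736, 677 and 729 in WT arrays, again without overlap (0.32, limma, adjusted p = 0.46 over all probe sets), and a still dimmer one had -0.03. Gpd1 is also abundant in adipocytes. Of the adipocyte markers, Fabp4 and Retn passed the filter with log2 fold changes of 0.05 and -0.04, and Adipoq, Lep and Cidec were under it. Fabp4 stood at percentile 99.7 of all genes while Adipoq, Lep and Cidec were that dim, so its value does not gauge adipocytes. The part of adipocytes in the Gpd1 signal was not tested. Gpd1l, which resembles Gpd1 and is known for its effect on the cardiac sodium channel, had 2968, 3030.5 and 3494 in Glut1-TG arrays and 3499, 3539 and 3564 in WT arrays. Its groups did not overlap by a narrow gap, with a log2 fold change of -0.16 ± 0.09 (limma, adjusted p = 0.53). Gpd2, the mitochondrial enzyme of the glycerol phosphate shuttle, was dim, and its 3 probe sets past the filter had log2 fold changes of -0.31, -0.94 and 0.30.

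The genes for the entry of other sugars overlapped between the groups. Galm, which converts the anomers of galactose and glucose, had 2273, 2713 and 2280 in Glut1-TG arrays and 2391, 1879.7 and 2316 in WT arrays (log2 fold change 0.14 ± 0.12). Pgm1, the phosphoglucomutase between glycogen and glycolysis, had 3889, 5116 and 4898 in Glut1-TG arrays and 5089, 4369 and 4903 in WT arrays (-0.05 ± 0.12). Pgm2, a related mutase, had 0.00 ± 0.35. Khk, which phosphorylates fructose, had 630.2, 425 and 369.8 in Glut1-TG arrays and 372, 416 and 434 in WT arrays. Glut1-TG replicate 1 alone held its mean above WT, and without that array the log2 fold change of 0.19 turned to -0.04.

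Comparing 2 isoenzymes within each array removes a constant scaling factor, though not a shift that depends on brightness, and it shows unequal change of 2 probe sets, not their relative level. Of 7 pairs planned, 6 could be measured, since Eno1 was not. The difference Ldha minus Ldhb in log2 signal was -0.32, -0.25 and -0.38 in Glut1-TG arrays and -0.63, -0.49 and -0.53 in WT arrays, a shift of 0.24. Ldha thus stood higher against Ldhb in every Glut1-TG array than in any WT array. Hk2 minus Hk1 was 0.70, 0.46 and 0.26 in Glut1-TG arrays and 1.02, 1.01 and 0.80 in WT arrays, a shift of -0.47. Pfkl minus Pfkm was -1.68, -1.59 and -1.62 in Glut1-TG arrays and -1.98, -1.77 and -2.03 in WT arrays, a shift of 0.30. In both pairs the groups again did not overlap, Hk2 standing lower against Hk1 and Pfkl higher against Pfkm in Glut1-TG hearts. Aldoc minus Aldoa shifted by 0.73, with -7.94, -7.56 and -7.20 in Glut1-TG arrays and -7.99, -8.50 and -8.42 in WT arrays. After quantile normalization that shift was 0.49 and the groups overlapped (two-sided exact permutation p = 0.3), and with the mean of the probe sets it was 0.70 (exact permutation p = 0.2). The aldolase shift rests on a dim Aldoc probe set, and the Aldoc probe set under the filter went the other way. Pfkp minus Pfkm and Pgam1 minus Pgam2 overlapped, with shifts of 0.08 and -0.03. For the 4 pairs without overlap the two-sided exact permutation p was 0.1, the smallest that 20 groupings allow, and 0.15 after adjustment over 6 pairs, so that this design could not reach 0.05. Of single genes, 17.4% lacked overlap, and the share among pairs drawn from all genes was not computed. Hk2 and Ldhb also lacked overlap by themselves, so their pairs are not separate results. Leaving out single arrays gave shifts of 0.20 to 0.27 for the Ldh pair, -0.58 to -0.37 for the hexokinases, 0.25 to 0.38 for Pfkl and Pfkm, and 0.55 to 0.92 for the aldolases.

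**Figure D3:**
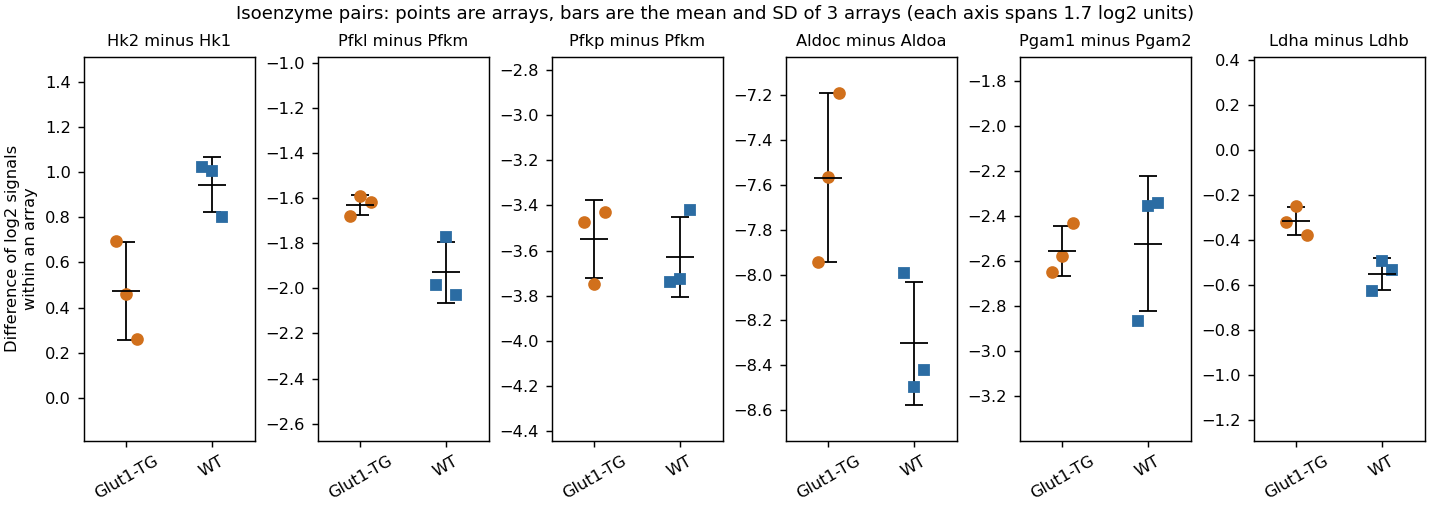
Difference of log2 signals between 2 isoenzymes within each array, Glut1-TG left and WT right, with points for arrays and bars for the mean and SD of 3 arrays; all axes span the same range. On the deposited scaling Hk2 minus Hk1 lay lower and Pfkl minus Pfkm, Aldoc minus Aldoa and Ldha minus Ldhb higher in all Glut1-TG arrays.

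Many glycolytic genes are among the brightest of the heart, with 14 of 27 over percentile 90 of all genes. Of 9 genes with a mean signal over 10000, namely Aldoa, Eno3, Ldha, Ldhb, Pfkm, Pgam2, Pgk1, Pkm and Tpi1, 8 had a negative log2 fold change, with a median of -0.15. Of all 335 genes that bright, 79.1% were negative with a median of -0.11, and the 12 cardiomyocyte markers, such as Myh6 and Tnnt2, were negative throughout with a median of -0.19. These markers were bright in every array, with a summed signal of 452694 to 479874 in Glut1-TG arrays and 483207 to 584850 in WT arrays. Genes with a mean signal under 1000 had a median of 0.07. After quantile normalization the medians were -0.03 for the 9 glycolytic genes, 0.01 for all genes over 10000 and -0.02 for the cardiomyocyte markers. In the same direction, the geometric mean of the 18 hybridisation spike probe sets was 3859, 3858 and 3945 in Glut1-TG arrays and 4301, 4310 and 4796 in WT arrays (two-sided exact permutation p = 0.1, the smallest possible). The part of array scaling in the negative values was not tested. After quantile normalization Hk2 had -0.35, Ldhb -0.16, Pfkfb3 1.06 and Gpd1 0.34, and the signs of Tpi1, Pgk1, Ldha, Pgm1 and Pgm2 turned.

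**Figure D4:**
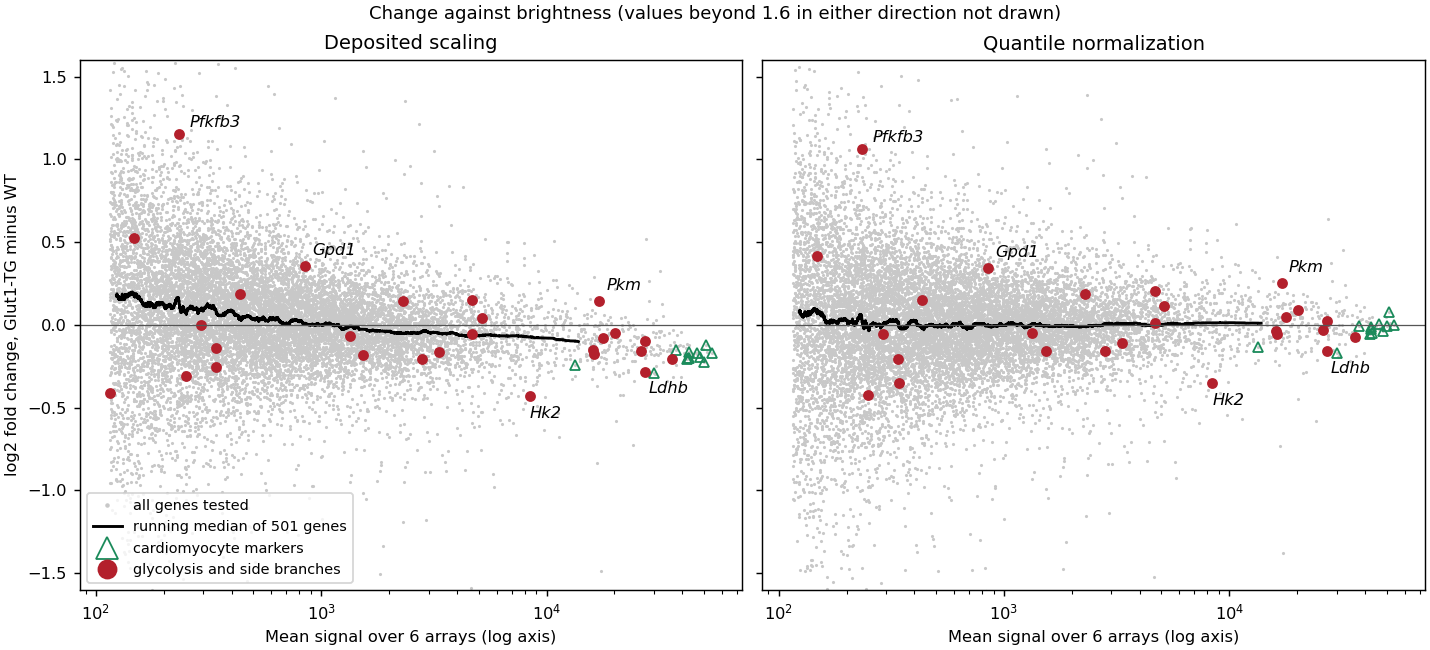
Log2 fold change (Glut1-TG minus WT) against mean signal over 6 arrays (log axis) for all genes in grey, the 27 genes of glycolysis and its branches in red and the cardiomyocyte markers as triangles, before (left) and after quantile normalization (right). The running median of all genes falls with brightness on the left, reaching a median of -0.11 above 10000, and is flat on the right, while Pfkfb3, Hk2 and Gpd1 stay apart from it in both.

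Single arrays also moved the bright genes together. WT replicate 1 was the highest WT array for 7 of the 9 bright genes, WT replicate 2 the lowest WT array for all 9, and Glut1-TG replicate 3 the lowest of all arrays for 6. The summed signal of the measured genes was 220303 to 243829 in Glut1-TG arrays and 227954 to 277598 in WT arrays. Glut1-TG replicate 1 stood somewhat apart over all genes tested, with Spearman correlations of 0.919 to 0.929 with the other arrays, against 0.951 to 0.967 among the others. Without WT replicate 2, Ldhb had a log2 fold change of -0.37, and without WT replicate 1 it had -0.19. Without Glut1-TG replicate 3, Hk2 had -0.35, and without Glut1-TG replicate 2, the highest array for Pfkfb3, Pfkfb3 had 0.89.

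Several genes have more than 1 probe set, and these were set beside the brightest. Probe sets of a gene share the arrays and any shift with brightness, so their agreement is no independent check. Of the genes with several probe sets past the filter, 8 had the same sign in all of them and 7 did not, namely Bpgm, Gpd1, Gpd2, Hk1, Pfkfb2, Pfkp and Pgk1. Of the 56 probe sets past the filter, 0 passed limma over 22551 probe sets, and the share called among all of those was not computed. The probe sets of Aldoa, Ldhb and Pfkl each lay on one side of 0. For 17 of the 27 genes the 95% interval of the fold change lay within 1.5-fold of WT in either direction, and for 23 within 2-fold, the exceptions being Pfkfb3, Aldoc, Slc16a3 and Gpd2. For 11 genes the log2 fold change was smaller than its SE.

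**Figure D5:**
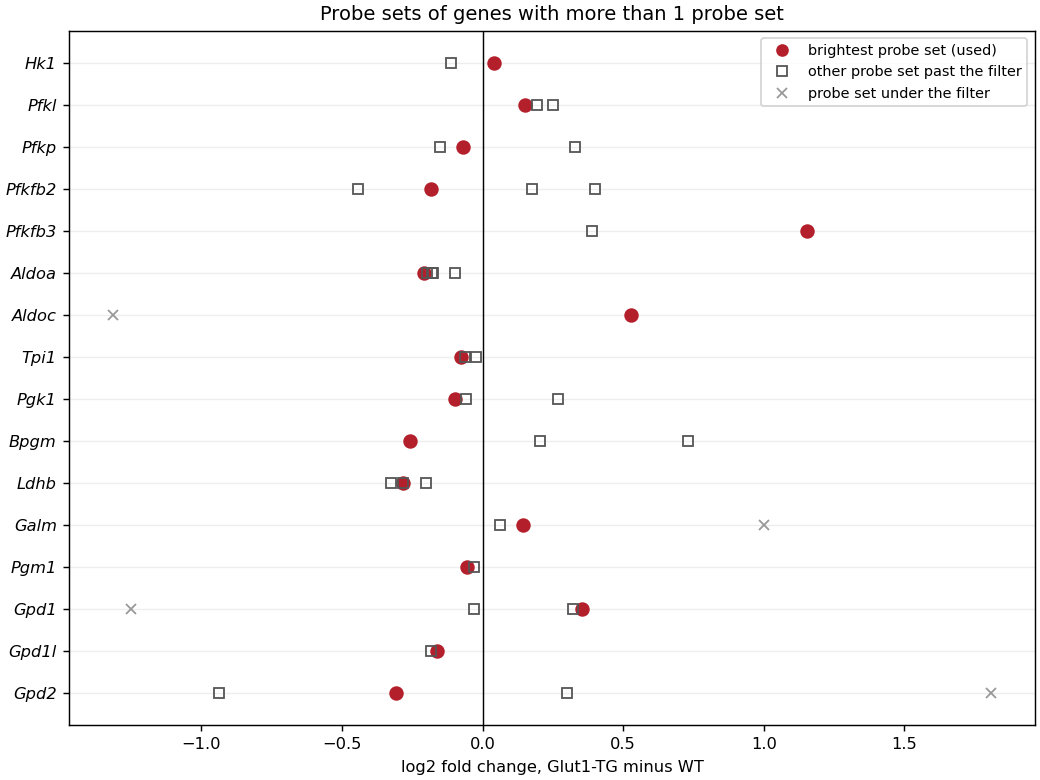
Log2 fold change (Glut1-TG minus WT) of every probe set of the genes with more than 1, with the brightest as a red circle, others past the filter as squares and those under the filter as crosses. The probe sets of Aldoa and Ldhb lie close together below 0, while those of Bpgm, Gpd2, Pfkfb2 and Pfkp lie on both sides of 0.

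Among 57 further genes of the same and neighbouring pathways, 50 were annotated, 45 were tested and 0 passed limma, with a median log2 fold change of 0.02. At an unadjusted limma p under 0.05, 2 were higher and 2 lower, namely Agpat3 and Akr1b10, and Dcxr and Gckr. Gckr had 171, 71.9 and 101 in Glut1-TG arrays and 196, 217 and 251 in WT arrays. With 71.9 and 101 under the filter's signal of 115, its passing rests on the WT arrays and no fold is given. Dcxr, the dicarbonyl and L-xylulose reductase next to the polyol branch, was the one gene past the study's thresholds, and it is named here after its values were seen. It had 63.8, 48.6 and 129 in Glut1-TG arrays and 507, 251 and 406 in WT arrays, without overlap. The adjusted p of limma for Dcxr was 0.053. Since 63.8 and 48.6 were under the filter's signal of 115, the gene passed the filter through its WT arrays, and no fold is given. All 5 tested genes of glycerolipid synthesis and lipin were positive, with a median of 0.13, and Agpat3, an acyltransferase of that route, had 3514, 3998 and 3401 in Glut1-TG arrays and 3108, 2809 and 2858 in WT arrays (0.31 ± 0.09, limma, adjusted p = 0.24). The other isoenzymes of glycolysis, 8 tested, had a median of 0.28, with 0 called and a smallest adjusted p of limma of 0.51. All but Ldhd were dim, from percentile 4.6 (Eno2) to 38.1 (Pklr) of all genes. For 5 of the 8 the log2 fold change was smaller than its SE. The 7 opposing and side enzymes had a median of -0.08, and Fbp2, the muscle fructose bisphosphatase, had -0.33 with overlap (limma, adjusted p = 0.45). The 10 regulators and related genes had a median of -0.08, and Hif1a, the hypoxia factor, had -0.20 (limma, adjusted p = 0.59).

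Of the markers of other cell types, 2 of 4 tested genes of the atrial list, Myl4 and Myl7, passed limma as higher (0.258% of all genes), and the other lists had 0 called. Myl4 had 1036, 1697 and 1038 in Glut1-TG arrays and 400.2, 278 and 429.7 in WT arrays, a log2 fold change of 1.75 (limma, adjusted p = 0.0085). Myl7 had 378, 713 and 315 in Glut1-TG arrays, whereas its WT signals of 26.5, 90.5 and 14.2 were all under the filter's signal of 115, so that its call rests on the Glut1-TG arrays (limma, adjusted p = 0.041) and no fold is given. The other tested genes of that list did not follow, with log2 fold changes of -0.07 for Nppa and 0.28 for Myl1, both with overlap. Myl1 is a light chain of fast skeletal muscle and not an atrial marker. It was listed as atrial, so the fast skeletal list below lacks it. Sln, under the filter, had 65.3, 56.9 and 39.4 in Glut1-TG arrays and 117, 116 and 114 in WT arrays. Endothelial, fibroblast, macrophage and smooth muscle lists had medians of 0.03, 0.09, 0.06 and 0.00. Of the markers of fast skeletal muscle, which shares Aldoa, Eno3, Pfkm and Pgam2 with the heart, 4 of 10 were tested, with a median log2 fold change of 0.01, and Myh4, Myh1, Tnnt3, Tnni2, Tnnc2 and Actn3 were under the filter. Acta1, the skeletal actin that the heart also expresses, had 30856, 30570 and 31878 in Glut1-TG arrays and 24525, 25858 and 27439 in WT arrays, without overlap (0.26, limma, adjusted p = 0.24). Ckm, Mylpf and Pvalb overlapped, with -0.24, -0.38 and 0.32. The summed signal of these 4 markers was 63949 to 67806 in Glut1-TG arrays and 61539 to 71764 in WT arrays. Nearly all of it came from Acta1 and Ckm, since Mylpf and Pvalb averaged 166 and 308 in Glut1-TG and 201 and 257 in WT arrays. The sum is therefore no measure of skeletal muscle alone. The part of skeletal muscle in the values of the shared glycolytic genes was not tested.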

How the data were processed

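Total RNA from the left ventricle of 3 Glut1-TG and 3 WT mice was labelled as biotinylated cRNA and hybridised to 1 array each. The deposited table gives a signal intensity for each of 45101 probe sets on a linear scale, which the authors made with GCOS (no version given). With 2% of values trimmed from either end, every array averaged 500. These values were taken as already scaled. The 64 control probe sets were excluded. Log2 was taken after 48 values below 1 had been raised to 1. The array annotation gave 34945 probe sets exactly 1 symbol. The brightest of these stood for a gene, the lowest 40% of probe sets by mean (under a signal of 115) were left out, and 13178 genes were tested with limma 3.58.1 in R 4.3.3 (lmFit, eBayes with an intensity trend), with Benjamini-Hochberg adjustment over all genes and a threshold of 0.05. All probe sets past the filter were fitted in the same way. A fold change is on the log2 scale of the signal, Glut1-TG minus WT, and a dim gene's change is less certain. The number of arrays limits the precision. Sequences and gene names came from RefSeq, GRCm38.p6. Figures and motif counts were made with Python 3.11.15.

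The methods' t-test is an unpaired Student's test on log2 signals, since the statistics section of the study names it in general and no test for the array. Isoenzyme pairs were compared with a two-sided exact permutation test over 20 groupings. Alternatives were quantile normalization, an offset of 50, no filter, a strict filter (upper 40% kept), averaging over the probe sets of a gene, a replicate block, the omission of each array, the unadjusted limma p, the study's thresholds, the adjusted t-test of the methods and an eBayes fit with no trend. The procedure was also run on simulated data with independent noise and no shift with brightness. That run does not bear on the values of these genes. The gene names, lists and markers were chosen with earlier results of these data known. Values in every array were given for genes past a threshold or without overlap between groups, for the brightest gene of each role and for isoenzyme pairs. Protein sequences were not used here.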

Additional observations from a re-analysis of the deposited data

Results flagged for a closer look

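Signals of control probe sets and of probe sets with several gene symbols, which stayed outside the comparison of genes, differed between the groups. The beta-actin ratio of the 5' to the 3' control probe set averaged 0.979 in Glut1-TG and 0.741 in WT arrays, with 0.942, 1.00 and 0.990 in Glut1-TG arrays and 0.765, 0.712 and 0.745 in WT arrays (two-sided exact permutation p = 0.1, the smallest that 20 groupings allow). The same ratio for Gapdh was 1.23 ± 0.035 in Glut1-TG and 1.21 ± 0.0081 in WT arrays (SD, n = 3 each), with overlap.

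A probe set that the annotation assigns to Gapdh and other symbols, with a name ending in _x_at, averaged 3590 (3594 before rounding) in Glut1-TG and 2058 in WT arrays. It had 3472, 3599 and 3711 in Glut1-TG arrays against 1726, 1924 and 2525 in WT arrays (two-sided exact permutation p = 0.1), and which of its genes it reads was not tested. The other 2 probe sets with Gapdh and further symbols overlapped between the groups, with log2 differences of -0.24 and 0.40.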

How the results depend on the processing

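Of 27 genes, 0 passed limma under quantile normalization, the offset of 50, either filter, the mean of the probe sets, each array left out, the replicate block, eBayes without trend and the methods' t-test with adjustment. The study's thresholds called 1 higher and 1 lower, and the unadjusted limma p 2 and 2. The median of -0.10 was -0.034 after quantile normalization and lay between -0.16 and -0.03 when arrays were left out. Of 423 values of single genes under alternatives, many keep the fold change by construction, and 226 differed from the value reported. Of these, 24 had the opposite sign. A further 9 could not be computed because a dim gene fell under the filter. The opposite signs were, by quantile normalization, Tpi1 0.048, Pgk1 0.026, Ldha 0.092, Pgm1 0.0089 and Pgm2 -0.056, and by the mean of the probe sets, Hk1 -0.035, Pfkp 0.036, Pgk1 0.038 and Bpgm 0.23. With arrays left out, Hk1 ranged from -0.017 to 0.12, Pfkp from -0.21 to 0.031, Bpgm from -0.50 to 0.87 (another probe set was the brightest without WT replicate 1 or 2), Ldha from -0.11 to 0.023, Pgm1 from -0.13 to 0.067, Pgm2 from -0.33 to 0.36, Gpd2 from -0.60 to 0.12 and Khk from -0.036 to 0.35. The array behind the turn was Glut1-TG replicate 1 for Gpd2 and Khk. The shift of Pfkp minus Pfkm was -0.013 after quantile normalization, and that of Pgam1 minus Pgam2 ranged from -0.20 to 0.058 with arrays left out. The causes were not tested.

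Counts over all genes moved more, and leaving out arrays leaves fewer samples. Against 34 higher and 79 lower, there were 21 and 47 with the mean of the probe sets, 2 and 2 for eBayes without trend, 1 and 0 for the methods' t-test with adjustment, 423 and 349 at the study's thresholds, and 721 and 765 at an unadjusted limma p, and leaving out an array gave 12 to 32 and 30 to 63. The labels do not say whether the replicate numbers pair the hearts. Deviations of same-numbered arrays from their group means correlated at 0.08, -0.03 and 0.05, and those of differently numbered arrays at -0.11 to 0.06. With 3 arrays a group, these values cannot tell whether the hearts were paired. With the replicate block 46 genes were lower. Of the other pathway genes, Dcxr passed as lower with the offset of 50 and without Glut1-TG replicate 3 (0 to 1 genes over the arrays left out), 1 gene was lower at the study's thresholds, and 2 were higher and 2 lower at an unadjusted p. Of the cell type markers, 2 were higher, against 1 with the strict filter, 0 with the mean of the probe sets, 0 without trend, 0 by the adjusted t-test, 1 to 2 with arrays left out, and 4 higher and 5 lower at an unadjusted p.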
